A study of Mus musculus with 3 samples.

Results

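TBX1 ChIP-seq regions at 5 genes of the extracellular matrix are described here. The genes are Fn1 (fibronectin), Fbn1 (fibrillin 1), Col14a1 (the chain of collagen XIV), Spon1 (spondin 1) and Matn1 (matrilin 1). They were chosen from the peak data themselves, as matrix genes near a region of the authors' consensus list, so the presence of peaks near them is the rule and not a result. Every peak of the 3 replicate lists and every consensus region within 300 kb of each gene body was taken. Peaks of different lists that overlapped by at least 1 bp were joined. This gave 15 of the 1088 deposited peaks, in 7 of 711 joined regions, and 5 of 255 consensus regions.

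Chromatin came from entire mouse embryos of embryonic day 9.5, and each of the 3 biological replicates was a pool of 20. All embryos were of 1 genotype, Tbx1 3'-Avi; BirA, homozygous for both alleles. The Avi tag sits on the endogenous TBX1 protein, and the biotin ligase BirA, from the Rosa26 locus, biotinylates it so that bound chromatin can be captured. The design had 1 condition, and untagged embryos were not analysed here. The lists of replicates 1, 2 and 3 held 146, 646 and 296 peaks, with a median fold enrichment over input of 6.51, 6.25 and 6.14. Replicates are numbered as on the sample labels. The numbers of peaks that the study states for its replicates differ from the sizes of these lists, and it is not known whether the consensus was made from the lists as deposited, which bears on every count of lists, rank and overlap with the consensus below. Because whole embryos were used, no peak can be tied to a cell type, and the lists hold no read counts from which the error of a fold enrichment could be set.

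TBX1 is a T-box transcription factor of the pharyngeal mesoderm, endoderm and otic vesicle. Fibronectin forms fibrils around migrating mesoderm that cells hold through integrins, and fibrillin 1 builds the microfibrils on which elastic fibres are laid. Collagen XIV lies on the surface of collagen fibrils, spondin 1 is a secreted matrix protein of the floor plate, and matrilin 1 is a filament-forming protein of cartilage. T-box proteins bind DNA at a core word written GGTGTGA, and TGACAG is the core bound by the homeodomain proteins of the MEIS and TGIF families.

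The 200 bases of mm9 reference sequence around the summit of the strongest peak of each region are printed first, because the regions fall into 2 kinds that can be seen by eye. In the 3 regions of the first kind short sequences recur at a regular spacing. Capitals mark atcc or its complement ggat in Matn1 and Spon1, where the period is 4 bp, and ctgtca, the complement of tgacag, in Fbn1, where the period is 8 bp and the 6 marked bases are part of a less regular repeat. All are on the plus strand of the assembly, and the Spon1 window runs past the end of its peak.
Matn1, in Laptm5, chr4:130488906-130489105: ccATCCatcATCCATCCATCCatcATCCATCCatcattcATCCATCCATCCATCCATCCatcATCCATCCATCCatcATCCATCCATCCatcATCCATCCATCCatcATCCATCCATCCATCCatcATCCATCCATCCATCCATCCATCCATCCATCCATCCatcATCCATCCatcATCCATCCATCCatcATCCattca
Spon1, proximal, chr7:120907646-120907845: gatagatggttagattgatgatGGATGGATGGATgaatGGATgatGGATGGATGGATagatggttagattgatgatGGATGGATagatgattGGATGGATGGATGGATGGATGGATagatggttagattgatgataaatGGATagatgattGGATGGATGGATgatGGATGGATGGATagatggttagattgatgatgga
Fbn1, in its intron, chr2:125327403-125327602: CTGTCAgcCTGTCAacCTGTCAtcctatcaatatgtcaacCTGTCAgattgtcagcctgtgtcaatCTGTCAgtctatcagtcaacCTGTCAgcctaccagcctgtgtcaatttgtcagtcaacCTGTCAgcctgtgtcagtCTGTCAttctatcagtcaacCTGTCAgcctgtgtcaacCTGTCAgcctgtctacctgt

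The other 4 regions have no such repeat. Capitals mark GCTGACA and GTGTGA, or their complements, upstream of Fn1, GCTGACA in the distal region of Col14a1, GCTGACA and TGACAG, which overlap, in the distal region of Spon1, and TGACAG or its complement in the intron of Col14a1. All but TGACAG were chosen after these sequences had been seen.
Fn1, upstream, chr1:71884411-71884610: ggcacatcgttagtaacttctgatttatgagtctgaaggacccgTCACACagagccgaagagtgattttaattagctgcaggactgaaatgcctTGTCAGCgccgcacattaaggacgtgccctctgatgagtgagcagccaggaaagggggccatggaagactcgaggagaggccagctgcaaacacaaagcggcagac
Col14a1, distal, in Deptor, chr15:54992161-54992360: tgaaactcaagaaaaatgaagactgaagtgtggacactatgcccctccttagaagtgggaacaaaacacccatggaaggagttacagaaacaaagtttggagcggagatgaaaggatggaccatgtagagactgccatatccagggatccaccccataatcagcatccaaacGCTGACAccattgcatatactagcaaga
Col14a1, in its intron, chr15:55331831-55332030: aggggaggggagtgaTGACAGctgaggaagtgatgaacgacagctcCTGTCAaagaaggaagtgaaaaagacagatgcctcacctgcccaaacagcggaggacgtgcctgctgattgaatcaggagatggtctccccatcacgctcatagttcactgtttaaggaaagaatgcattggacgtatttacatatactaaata
Spon1, distal, chr7:120831705-120831904: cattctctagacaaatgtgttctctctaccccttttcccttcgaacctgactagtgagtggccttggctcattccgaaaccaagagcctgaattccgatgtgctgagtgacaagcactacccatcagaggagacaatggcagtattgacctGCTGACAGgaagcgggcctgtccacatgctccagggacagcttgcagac

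The 7 regions lay upstream of their gene in 5 cases and inside it in 2, and none lay downstream. Fn1, Fbn1 and Matn1 had 1 region each, and Col14a1 and Spon1 had 2 each. Of all 22380 protein-coding genes, 18.1% had a joined region within 300 kb and 8.21% had a consensus region there. No further region appeared when the limit was 500 kb. The next region lay 579 kb from Matn1, 602 kb from Fn1, 1248 kb from Col14a1, 1372 kb from Spon1 and 3778 kb from Fbn1.

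**Figure D1:**
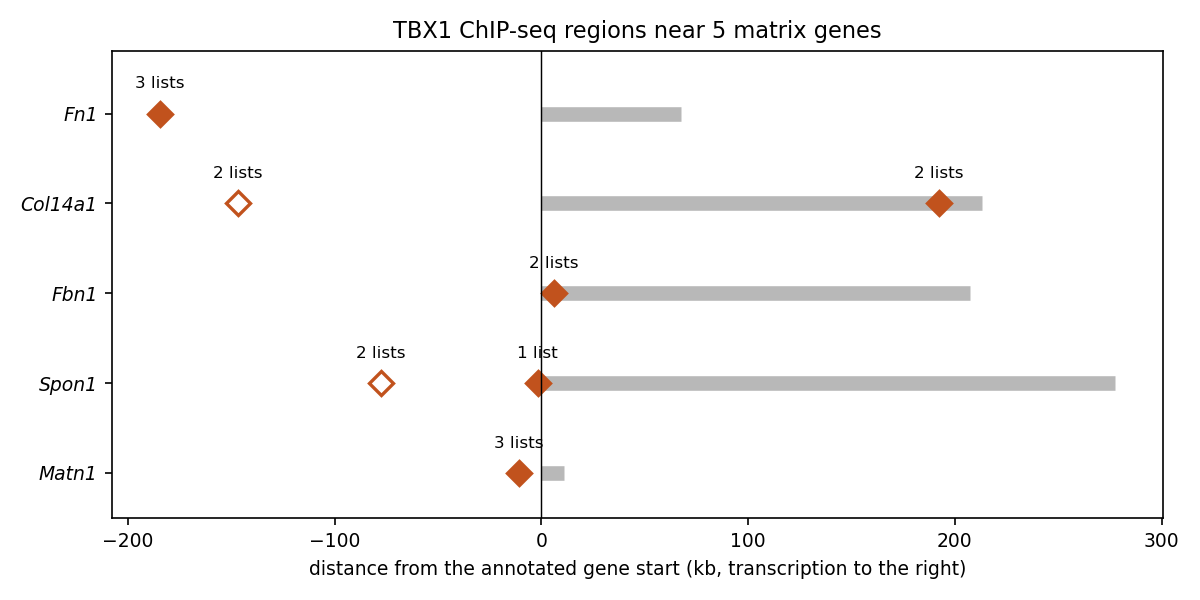
Position of the 7 regions along each gene, in kb from the annotated start with transcription to the right. Grey bars are gene bodies, filled diamonds are regions that overlap the consensus list and open diamonds are regions that do not, and the labels give the number of replicate lists with a peak. The region of Fn1 is the farthest upstream, at 185 kb, and the regions of Spon1 and Matn1 with filled diamonds lie 1.75 and 10.8 kb upstream.

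Regions with a peak in at least 2 lists made up 6 of the 7, against 39.2% of all joined regions, and 2 of the 7 had a peak in all 3 lists, against 13.1%. The count of 6 was 3 when peaks had to overlap reciprocally by 50%, 2 without replicate 2 and 3 without replicate 3. Both shares are read as description only, since the genes were chosen for such regions. Replicate 1, the shortest list, had no peak in 4 of the 7, against 79.7% of all joined regions. The distal regions of Col14a1 and Spon1 each had peaks in 2 lists and overlapped no consensus region, as did 22.2% of all regions with a peak in at least 2 lists.

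At Matn1 (ENSMUSG00000040533.7, chr4:130500300-130511390, plus strand) the region was chr4:130488491-130489485. It lay 10.8 kb upstream, inside intron 7 of Laptm5, a gene with 9 exons in its main transcript that encodes a lysosomal membrane protein of blood cells. Matn1 had the nearest coding gene start. The fold enrichment was 23.6 in replicate 1, 17.4 in replicate 2 and 11.7 in replicate 3, with −log10 q of 64.5, 82.9 and 44.6. These peaks ranked 1 of 146, 12 of 646 and 15 of 296 by fold enrichment. The mean percentile in its own list was 97.7 ± 2.33 (SD, n = 3), on a scale where stronger peaks have higher values, and the region was near the top of every list. The summits lay within 4 bp of each other, and the peaks were 850 to 995 bp wide.

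At Fn1 (ENSMUSG00000026193.8, chr1:71632094-71699774, minus strand) the region was chr1:71884331-71884735, 185 kb upstream and between genes. The protein-coding genes on either side were annotated as Apol7d and Gm5528, 175 and 166 kb away, and Gm5528 rather than Fn1 had the nearest coding start. The fold enrichment was 4.86 in replicate 1, 13.2 in replicate 2 and 7.70 in replicate 3, and −log10 q was 5.03, 34.0 and 14.2. These peaks ranked 110 of 146, 25 of 646 and 72 of 296, so the region was among the weaker peaks of 1 list and the stronger peaks of another. The mean percentile was 65.6 ± 36.7 (SD, n = 3). The 3 summits lay within 7 bp.

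At Fbn1 (ENSMUSG00000027204.7, chr2:125126330-125333729, minus strand) the region was chr2:125327286-125327626, in intron 2 of a transcript with 66 exons and 6.10 kb from the gene start. Gm9913 had the nearest coding start, at 3.20 kb. Enrichment was 7.24-fold in replicate 2 and 5.80-fold in replicate 3, with −log10 q of 10.97 and 5.55 and ranks of 212 and 174. Replicate 1 had no peak there. The mean percentile was 53.7 ± 19.1 (SD, n = 2), in the middle of the lists. The summits lay 16 bp apart, although the peak of replicate 3 covered only 44.9% of that of replicate 2.

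At Col14a1 (ENSMUSG00000022371.8, chr15:55139305-55352358, plus strand) the stronger region was the one outside the consensus. The distal region, chr15:54992181-54992351, lay 147 kb upstream in intron 3 of Deptor, which encodes an inhibitor of mTOR. The fold enrichment was 10.9 in replicate 2 and 11.5 in replicate 3, with −log10 q of 21.4 and 30.0 and ranks of 52 of 646 and 16 of 296. The mean percentile was 93.4 ± 1.93 (SD, n = 2), and the summits lay 8 bp apart. The gene start of Col14a1 was the fifth nearest among coding genes, the nearest being Gm9920 at 46.9 kb.

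The intronic region, chr15:55331638-55332010, lay in intron 44 of a transcript of 48 exons, near the 3' end of Col14a1. The nearest coding start was that of Mtbp at 57.0 kb, and that of Col14a1, at 192 kb, was the third. Its fold enrichment was 5.86 in replicate 2, a value shared by 29 peaks of that list, and 7.50 in replicate 3, with −log10 q of 5.29 and 9.78 and ranks of 370 and 79. The mean percentile was 56.8 ± 22.9 (SD, n = 2). Its peaks shared 70 bp and their summits lay 134 bp apart, against a median of 37.0 bp over the 279 regions with at least 2 lists. Only this region among the 6 with several lists had summits over 100 bp apart, so whether the peaks mark 1 site or more cannot be told from the lists.

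At Spon1 (ENSMUSG00000038156.9, chr7:120909512-121186884, plus strand) the distal region was chr7:120831662-120831953, 77.6 kb upstream and between Far1 and Gm5600. The start of Gm5600, at 19.8 kb, was nearer than that of Spon1. Its fold enrichment was 5.38 in replicate 1 and 8.21 in replicate 2, with −log10 q of 3.50 and 11.2 and ranks of 100 of 146 and 132 of 646. The mean percentile was 54.7 ± 33.7 (SD, n = 2), and the summits lay 59 bp apart. The proximal region, chr7:120907501-120907767, lay 1.75 kb upstream, the closest of the 7 to a member's start. It had a peak in replicate 2 alone, at 5.08-fold, −log10 q of 3.54 and rank 474 of 646, a value shared by 18 peaks. The consensus region over it spans 474 bp, 120907473 to 120907946, and the deposited peak 267 bp, and no deposited peak of replicate 1 or 3 overlaps it.

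**Figure D2:**
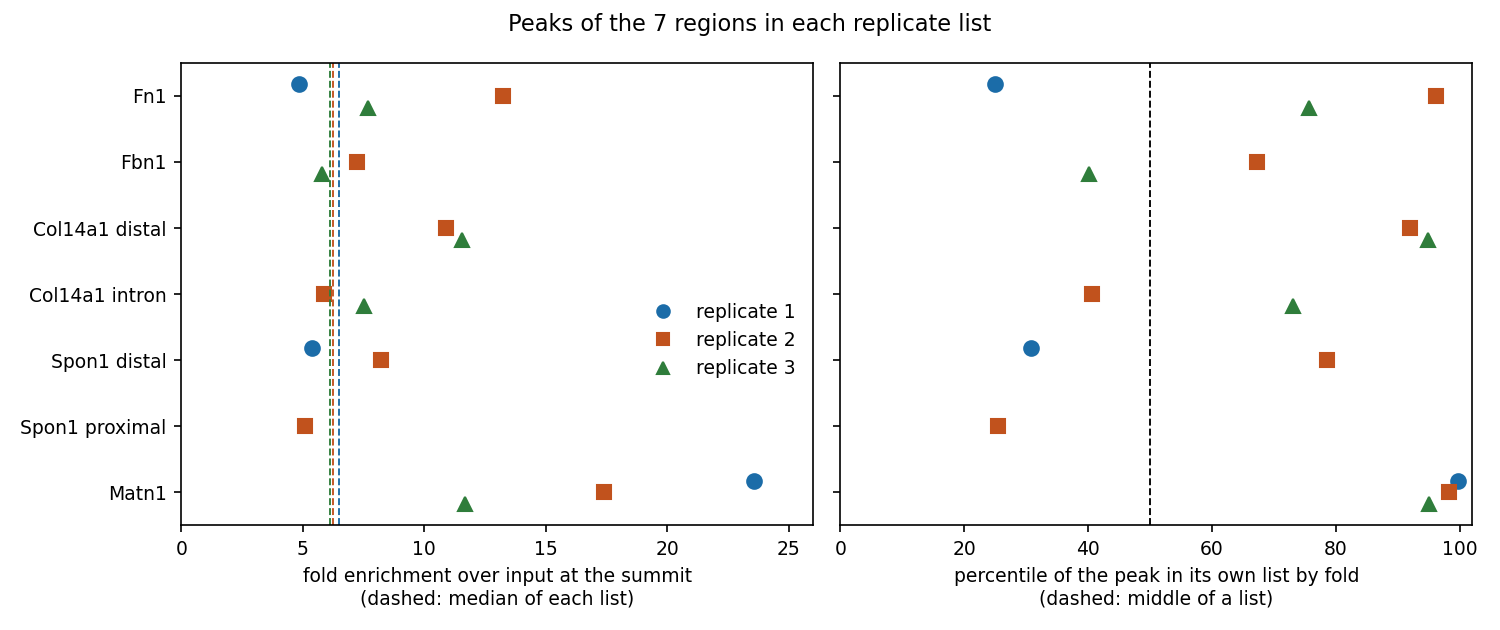
Fold enrichment over input at the summit (left) and percentile within the peak's own list (right) for each peak of the 7 regions. Each point is 1 peak of 1 replicate and dashed lines mark the median of each list. Matn1 and the distal region of Col14a1 lie above the 90th percentile in every list that has them, whereas Fn1 runs from 25.0 to 96.2.

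Tandem repeats set 3 of the 7 regions apart. The measure was periodicity, the share of bases in a 300 bp summit window equal to the base 1 period further on, for the best period of 1 to 12 bp. It was 82.1% in Matn1 with a period of 4 bp, 69.9% in the proximal region of Spon1 with a period of 4 bp, and 61.0% in Fbn1 with a period of 8 bp. In the other 4 regions it was 29.9% to 35.5%, about the median of 32.4% over all 711 windows. A periodicity of at least 60% was found in 7.45% of all windows and in 4 of 703 windows 5 kb to the right.

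This measure was made after the repeats had been seen, and 5 thresholds for it and 4 for a related one, the share of distinct 6-letter words, were looked at. At periodicity thresholds of 45% to 65% the members past it numbered 3 at each of the 4 lower thresholds and 2 at the highest, where Fbn1 dropped out. The share of all windows past it ran from 13.2% down to 6.47%. By distinct words the same count was 3 at each threshold, and 10.5% to 22.8% of all windows were past it. The atcc unit occurred 58 times in the Matn1 window on the plus strand and 39 times in the Spon1 window on the minus strand, and ctgtca occurred 15 times in the Fbn1 window, covering 30.0% of it. The part of such repeats in the enrichment was not tested. Windows at this level took 6, 4 and 2 of the 20 strongest peaks of replicates 1, 2 and 3, and 11.6%, 7.59% and 8.11% of all peaks of those lists. Their median fold enrichment was 6.95, 6.25 and 6.06, against 6.39, 6.25 and 6.14 for the other peaks.

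**Figure D3:**
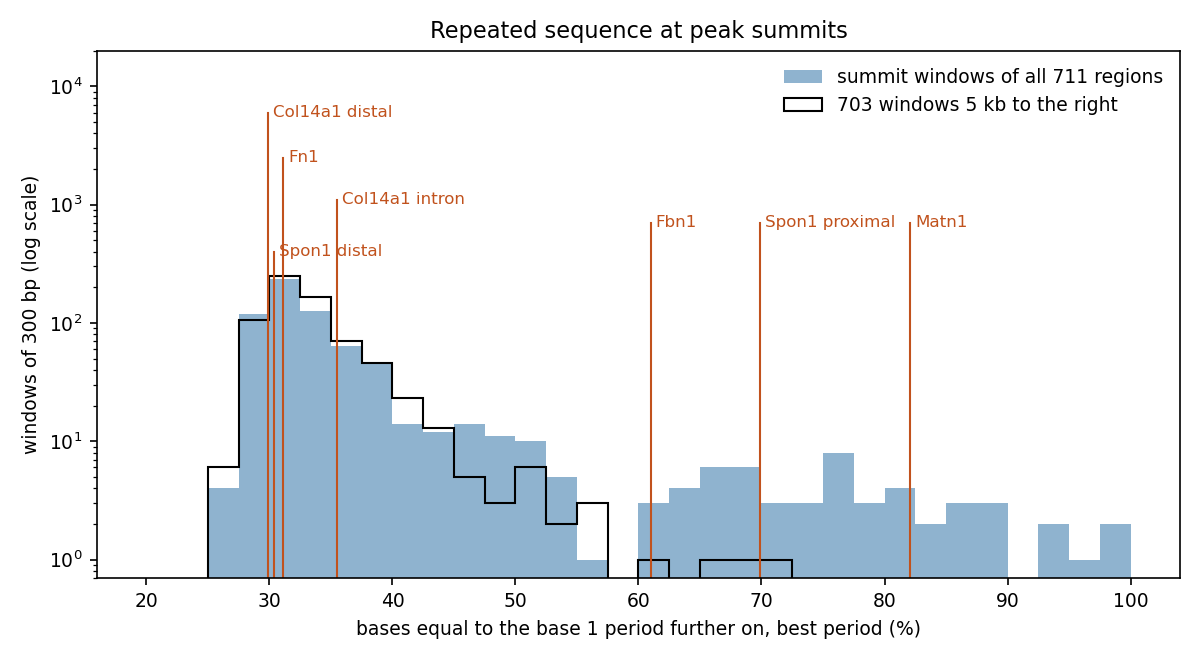
Periodicity of 300 bp windows, in percent of bases, at the summits of all 711 regions (filled) and at 703 windows 5 kb to the right (outline), on a log scale of windows. Orange lines mark the 7 regions. Fbn1, the proximal region of Spon1 and Matn1 lie at 61.0%, 69.9% and 82.1%, and the others at 29.9% to 35.5%.

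Sequence words were searched on both strands of the 300 bp windows. Of the 4 words taken from earlier work on these data, TGACAG was in 3 of the 7 windows (the intron of Col14a1, Fbn1 and the distal region of Spon1), against 45.4% of all windows. GGTGTGA was in none of the 7 and in 4.92% of all windows. GGTGNTGAC, a longer T-box word that overlaps TGACAG, was in none and in 7.17%. TGATTGAT, a word of PBX homeodomain proteins, was in none and in 7.59%.

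A further 8 words were looked at after the sequences had been seen, and all are given. GCTGACA was in 4 windows (Fn1, Fbn1 and the distal regions of Col14a1 and Spon1), against 15.5% of all windows and 3.98% of windows 5 kb to the right. Fbn1 held 9 copies. In Fn1 its centre lay 3.0 bp from the summit, and in the distal region of Col14a1 75.0 bp. GTGTGA, which lacks the first base of the T-box word, was in Fn1 alone and in 16.9% of all windows, the same share as 5 kb to the right.

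The other 6 words overlap these or the repeats. GCTGACAG was in 2 windows and in 10.5% of all, and TGACA in 5 and in 66.9%. GGAT was in 4 windows and in 80.5% of all, since it is short. GATGGATG, TGATGGAT and TGATNGAT were each in the windows of Matn1 and of the proximal region of Spon1 alone, where the atcc unit covers 77.3% and 52.0% of the bases, and in 9.42%, 10.4% and 19.7% of all. Because these words were picked from the windows they are counted in, their counts among the 7 support nothing further.

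Other matrix genes were looked up in 11 lists, of which 157 of 158 symbols matched. The lists also hold integrins, which are receptors, and genes of crosslinking and processing, so not all are genes of matrix proteins. Leaving out the 5 genes above, 18 of 152 (11.8%) had a consensus region within 300 kb, beside the 8.21% of all coding genes, and the 18 genes shared 15 regions. Of these 15 regions, 14 did not lie within the listed gene. Other genes may lie nearer to those 14 and are not given here, so no region is assigned to a gene. Genes of microfibrils and elastic fibres gave 4 of 17. Fbn2, the other fibrillin, had a region inside the gene where replicates 2 and 3 gave 10.8-fold and 8.93-fold enrichment. Emilin3, of an elastic fibre glycoprotein family, had one 33.7 kb downstream with 7.03 and 5.80, and Eln, which encodes elastin, one 41.0 kb upstream with 9.38 and 6.43. Replicate 1 had no peak at any of these 3, the closest of the list. The other gene, Mfap2, of a microfibril-associated protein, is named after its values were seen. Its region, 277 kb downstream, had peaks in all 3 lists, 18.2-fold, 28.8-fold and 15.9-fold in replicates 1, 2 and 3, with ranks of 2, 1 and 5.

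Among the other lists, Matn4 was the 1 further matrilin with a consensus region, 55.8 kb upstream, where the peaks of replicates 2 and 3 had 5.71-fold and 7.61-fold enrichment. Of the FACIT collagens, to which collagen XIV belongs, Col16a1 had one 5.52 kb upstream with 6.62, 6.25 and 7.14 in replicates 1, 2 and 3. Of the integrins, the receptors that bind fibronectin among other ligands, Itga5, the fibronectin receptor chain, had one 38.7 kb downstream with 7.02, 19.4 and 17.6, which ranked 58 of 146, 7 of 646 and 2 of 296, and Itgb3 one 78.2 kb downstream with 8.21 and 5.80 in replicates 2 and 3. None of the 11 fibrillar collagens and neither of the other spondins had one. The count was 4 of 21 for basement membrane genes, 4 of 18 for proteoglycans and link proteins, 1 of 16 for other collagens, 1 of 16 for crosslinking and processing enzymes, and 0 of 22 for the other adhesive glycoproteins.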

How the data were processed

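The authors aligned reads to mm9 with Bowtie2 2.3.4 and ran MACS2 2.1.2.1 separately on every replicate against input. The deposited fold enrichment is a ratio over background at the summit, and the deposited q-value is given as −log10. Deposited starts and ends are positions in bp, and a deposited summit is an offset in bp from the start of its peak. By the study's methods, the consensus list was made with BEDTools 2.29 from regions of at least 2 replicates, less the ENCODE blacklist, which was not used here. The deposited lists do not fully give that list: of 252 joined regions that overlap it, 35 have a peak in 1 list only, and 3 consensus regions overlap no deposited peak.

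From these, peaks were joined by overlap of 1 bp and placed on NCBIM37 with GENCODE vM1, and coordinates are 1-based. Introns are those of the coding transcript with the most exons. Percentiles count ties at the midpoint. No test was run: there is 1 condition. Windows with unknown bases or past a chromosome end were left out of the flanks (8 to the right). Functions were tested on simulated data. Python 3.11.15, numpy 2.4.6, pysam 0.24.0, samtools 1.23.1 and matplotlib 3.10.9 were used.

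The members and lists were chosen with earlier results of these data known. Named are the 5 members, hosts or flanking genes of each region, and up to the 3 closest genes per matrix list with a consensus region. Lists not described in the text are counted in the total. The 8 added words, the repeat units and the periodicity measures were chosen after seeing the data.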

Additional observations from a re-analysis of the deposited data

How the results depend on the processing

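Of 69 alternative values, 64 kept the reported value within 1.5 times, or within 1 SD of the replicates for percentiles. The 14 mean percentiles without 1 replicate are not among them, since such a mean cannot move by 1 SD of the same values. The 69 do include the alternatives for the 8 added words and the repeat measures, which were picked from these windows, and all of those kept their value. Some others could not move, since a q limit of 0.01 leaves out no member peak. The 64 are therefore not a measure of how robust the results are. Regions with a peak in at least 2 lists fell from 6 to 3 when peaks were joined only at a reciprocal overlap of 50%, by which the peaks of Fbn1, the intron of Col14a1 and the distal region of Spon1 were separated. They were 5 under summits within 100 bp. Leaving out 1 replicate each gave 2 to 5 such regions, 2 without replicate 2 and 3 without replicate 3, since fewer lists remain, and 6 to 7 regions in all. Regions in all 3 lists were 1 at a limit of 100 kb, which leaves out Fn1. The proximal region of Spon1 moved from a percentile of 25.4 by fold enrichment to 12.0 by −log10 q, with no replicate spread. Mean percentiles without 1 replicate ran from 50.3 to 85.9 for Fn1, 96.7 to 98.9 for Matn1, 92.0 to 94.8 and 40.6 to 73.0 for the distal and intronic regions of Col14a1, 40.2 to 67.2 for Fbn1 and 30.8 to 78.5 for the distal region of Spon1, which is at 30.8 without replicate 2 and 54.7 with it. No paired analysis was possible because there is 1 group and no test. The libraries' depths are given in the study but could not be matched to these lists, and reads per peak are not in them, so the precision of a single fold enrichment is not known.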
